A study of Homo sapiens with 4 samples.

Results

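TRAIL, a death ligand of the tumour necrosis factor family, was examined with its receptors and the proteins of the initiator complex in an established human cell line, OVCAR-3, which derives from an ovarian carcinoma. The 10 genes were TNFSF10, TNFRSF10A, TNFRSF10B, TNFRSF10C, TNFRSF10D, TNFRSF11B, FADD, CASP8, CASP10 and CFLAR, and every transcript cluster (the set of probes summarised as 1 value) whose platform annotation gave one of these symbols was taken. This yielded 11 transcript clusters of the 21214 with a gene name and the 33297 on the array. The set was chosen by pathway membership but also selected on a measured value, the known H1.3 minus vector-only difference of TNFRSF10D, so the differences of these genes are given as a description and nothing is inferred from them.

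Both groups were transfected OVCAR-3 cells: 2 arrays came from cells labelled as overexpressing the linker histone H1.3, and 2 from cells that received vector lacking H1.3 (vector-only). Replicates are called biological. The meaning of the (H) in the H1.3 titles, the promoter of the vector, and whether each group is a pool or 1 clone are not given in these sources, and a p-value reflects array-to-array spread only, which may be technical. Values are the authors' log2 expression levels, and a difference is H1.3 minus vector-only, so that 1 log2 unit is a 2-fold change.

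TRAIL is a membrane-bound or shed ligand that binds as a trimer to TNFRSF10A and TNFRSF10B, the death receptors also called DR4 and DR5. Their death domains recruit the adaptor FADD, which draws in procaspase-8 and procaspase-10 through death effector domains, and the caspases then cleave one another and the executioner caspases. TNFRSF10C, which is held in the membrane by a lipid anchor, TNFRSF10D, whose death domain is truncated, and the soluble receptor osteoprotegerin (TNFRSF11B) bind TRAIL without passing on a death signal, and CFLAR, a caspase-8 relative without protease activity of its own, competes in the complex. Ovarian carcinoma lines are known to vary widely in their response to TRAIL.

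TRAIL and caspase-8 are known as interferon-responsive genes, and the starts of both hold a match to the core of the interferon-stimulated response element, searched on both strands as GAAA and GAAA parted by any 2 bases. Of the 10 genes, 4 (TNFSF10, FADD, CASP8 and CFLAR) had entries among the RefSeq promoter windows of build GRCh38.p14, which run from 250 bases before a transcript start to 50 bases after it, with 9 windows between them. The windows of TNFSF10 (chr3:172523381-172523680, minus strand) and of 1 start of CASP8 (chr2:201233213-201233512, plus strand) are printed because the match, in capitals, lies there on the opposite strand and so reads as its reverse complement.
TNFSF10: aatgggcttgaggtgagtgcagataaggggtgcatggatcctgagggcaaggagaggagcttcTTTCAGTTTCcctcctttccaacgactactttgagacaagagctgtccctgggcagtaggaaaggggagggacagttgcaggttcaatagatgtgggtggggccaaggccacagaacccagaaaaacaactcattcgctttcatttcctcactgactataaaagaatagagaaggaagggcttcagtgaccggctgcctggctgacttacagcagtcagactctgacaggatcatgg
CASP8: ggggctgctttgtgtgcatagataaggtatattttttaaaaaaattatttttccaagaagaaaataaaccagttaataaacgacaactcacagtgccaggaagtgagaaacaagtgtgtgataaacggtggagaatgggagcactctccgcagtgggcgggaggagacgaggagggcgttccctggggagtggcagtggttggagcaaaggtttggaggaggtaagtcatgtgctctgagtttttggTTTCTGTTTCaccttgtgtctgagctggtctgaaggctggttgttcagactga
The match lay at positions -187 to -178 in TNFSF10 and at positions -3 to 7 in CASP8, counted from the transcript start. A match was present in 3.57% of all 35116 promoter windows. Searched on both strands, the gamma-activated motif TTCNNNGAA was found in 1 window of CASP8 (7.66% of all windows). The GC box GGGCGG lay in windows of CFLAR, CASP8 and FADD (45.0%), and the forkhead motif GTAAACA in none of the 9 (3.42%). These shares are of single windows, whereas CFLAR and CASP8 had several each. Counted by gene, 9379 measured genes had the GC box in a window and 4860 did not. None of the matches in the 2 printed windows overlapped. Over the array, 587 measured genes with the interferon core in a promoter window had a median difference of 0.04, against 0.02 for 13652 genes without it, and the differences of TNFSF10 and CASP8 themselves were -0.56 and 0.11.

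The gene for H1.3, H1-3, did not run with the labels. Its level was 7.47 and 7.69 in the arrays labelled H1.3, against 8.65 and 7.88 in the vector-only arrays, so every direction here is that of the labels. The median level of the named clusters was 6.84 on each array. Of the OVCAR-3 lineage markers, 12 of 13 genes lay at or above that median. Part of this list also moved with the contrast. Of its 13 genes, 5 were apart and lower in H1.3 (background 19.4%) and 2 apart and higher (background 21.2%), with a list median of -0.08. FOLR1, the folate receptor alpha gene, was called lower at -1.26 (limma adjusted p 0.0291). EPCAM, an epithelial adhesion molecule, stood at -0.57 without passing, and the keratin gene KRT7 went the other way at 0.32. Of the leukocyte markers, whose cells also use TRAIL, 1 of 12 lay at or above the median level of the named clusters. The list means were 5.35 and 5.17 in the H1.3 arrays and 5.13 and 5.23 in the vector-only arrays. Counts at or above that median were 1 of 8 for fibroblast and 0 of 6 for endothelial markers. The part of other cells in the values below was not tested.

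The largest difference lay in a decoy receptor. TNFRSF10D measured 6.17 and 6.74 in the H1.3 arrays, against 8.13 and 8.18 in the vector-only arrays. Both H1.3 arrays lay well under both vector-only arrays, and array by array the difference ran from -2.01 to -1.39. The mean difference was -1.70 ± 0.19 (SE), or 3.25-fold lower, and only 15 of the 21214 named clusters had a larger negative difference. The H1.3 replicates were 0.57 apart and the vector-only replicates 0.05 apart, against median replicate gaps of 0.15 and 0.13 over all named clusters. In such bulk RNA, fewer cells with the transcript and less of it per cell cannot be told apart.

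The 2 death receptors were lower by less. TNFRSF10B measured 8.27 and 8.57 in the H1.3 arrays, against 8.79 and 9.11 in the vector-only arrays, a difference of -0.53 ± 0.16 (SE). TNFRSF10A measured 7.72 and 7.77 in the H1.3 arrays, against 8.10 and 8.10 in the vector-only arrays, a difference of -0.36 ± 0.11 (SE). The groups overlapped for neither gene, although the closest pair of arrays differed by only -0.22 for TNFRSF10B and by -0.33 for TNFRSF10A. Measured within each array and without a test, the log2 ratio of TNFRSF10D to TNFRSF10A differed by -1.35, with array pairs from -1.63 to -1.06, and that to TNFRSF10B by -1.17, from -1.44 to -0.90. The ratio of TNFRSF10A to TNFRSF10B differed by 0.18, with array pairs from -0.11 to 0.46, and did not separate the groups. The receptor genes resemble each other in sequence, and probe sharing among them was not examined.

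**Figure D1:**
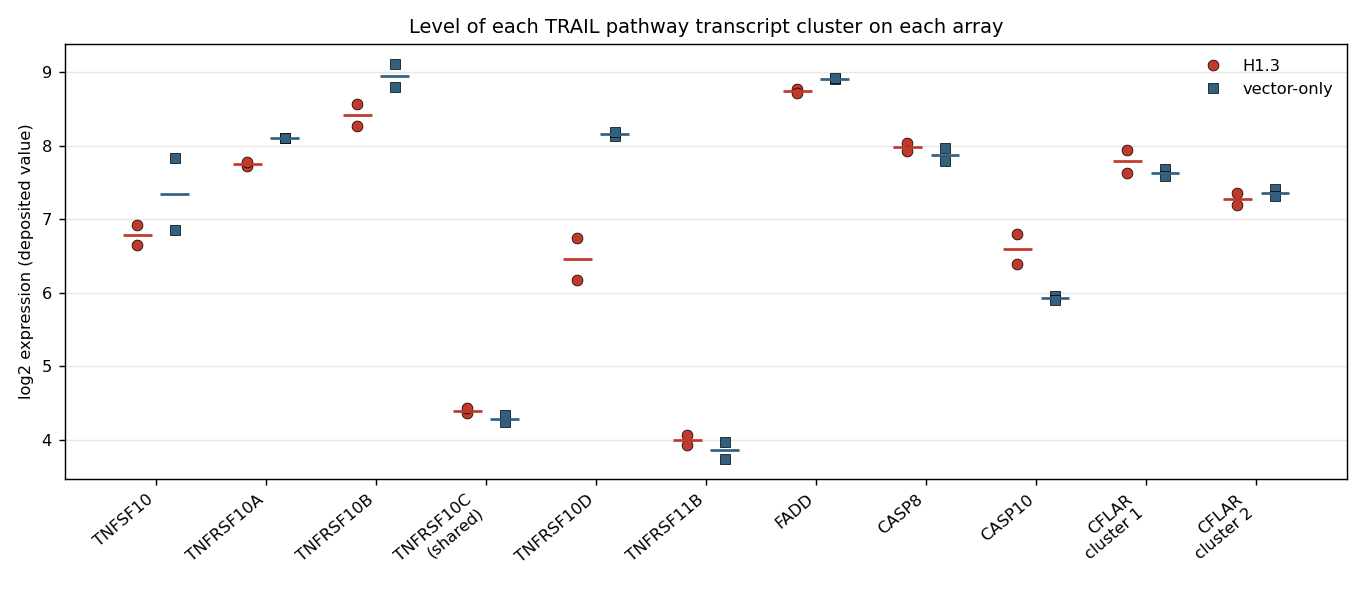
Deposited log2 expression (vertical axis) of each of the 11 transcript clusters on each array, H1.3 as red circles and vector-only as blue squares, with a bar at each group mean (n = 2). TNFRSF10D stands out with 6.17 and 6.74 in H1.3 arrays below 8.13 and 8.18 in vector-only arrays, and CASP10 lies the other way.

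The other 2 receptors were dim. The cluster carrying TNFRSF10C is also annotated to LOC254896, so its signal cannot be given to either gene. It measured 4.37 and 4.43 in the H1.3 arrays, against 4.24 and 4.34 in the vector-only arrays. TNFRSF11B measured 3.94 and 4.07 in the H1.3 arrays, against 3.74 and 3.98 in the vector-only arrays. All of these values lay below the lower quartile of the named clusters, which was 5.28 to 5.38 per array, and the differences of 0.11 ± 0.12 and 0.15 ± 0.13 (SE) were about as large as their standard errors. Background intensity was not examined, so whether a change of either transcript could have been detected is not known.

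The ligand gave a difference that rested on 1 array. TNFSF10 measured 6.65 and 6.92 in the H1.3 arrays, against 6.85 and 7.83 in the vector-only arrays. The groups overlapped, and the higher value of vector-only replicate 2 set the difference of -0.56 ± 0.29 (SE), which was -0.07 without that array and -1.05 without vector-only replicate 1. The vector-only replicates were 0.98 apart, whereas 90% of the named clusters had a gap of at most 0.36 there.

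Of the initiator complex, CASP10 was the gene whose groups were apart and higher in H1.3. It measured 6.80 and 6.39 in the H1.3 arrays, against 5.95 and 5.90 in the vector-only arrays, a difference of 0.67 ± 0.16 (SE). Both H1.3 arrays were higher, by 0.44 to 0.90 per array pair, and the difference was 0.47 without H1.3 replicate 1 and 0.88 without H1.3 replicate 2. CASP8, the closely related initiator caspase, measured 8.03 and 7.93 in the H1.3 arrays, against 7.96 and 7.79 in the vector-only arrays, and its groups overlapped with a difference of 0.11 ± 0.12 (SE). The log2 ratio of CASP10 to CASP8 differed by 0.57, with array pairs from 0.35 to 0.78, and was not tested.

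The adaptor and the caspase-8 regulator differed little. FADD measured 8.77 and 8.71 in the H1.3 arrays, against 8.90 and 8.91 in the vector-only arrays, a small difference of -0.17 ± 0.11 (SE) without overlap. CFLAR had 2 clusters that disagreed in sign. The brighter cluster measured 7.63 and 7.94 in the H1.3 arrays, against 7.68 and 7.58 in the vector-only arrays, and the other measured 7.19 and 7.36 in the H1.3 arrays, against 7.41 and 7.31 in the vector-only arrays. Their differences were 0.16 ± 0.14 and -0.09 ± 0.12 (SE), the groups overlapped in both, and the mean of the clusters differed by 0.04.

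Counted by gene, with the brighter cluster standing for CFLAR, 5 of the 10 genes had a higher and 5 a lower mean in the H1.3 arrays, and their median difference was -0.03, against 0.02 over all named clusters. Groups were apart and lower in H1.3 for 4 genes (background 19.4%), and apart and higher for 2 (background 21.2%), of which 1 was the shared TNFRSF10C cluster. In the limma fit over all named clusters, 1 gene, TNFRSF10D, was lower at an adjusted p under 0.05 (background 0.264%) and 0 were higher (background 0.24%). At an unadjusted p under 0.05 there were 4 (background 11.5%): TNFRSF10D, TNFRSF10A, TNFRSF10B and CASP10. Since these genes were picked with this contrast known, the counts describe them only. TNFRSF10D lost its call when the unnamed clusters were tested as well (limma adjusted p 0.169) and without variance moderation in limma (adjusted p 0.621). With the replicate block (limma adjusted p 0.146) the call was lost too, as were all other calls of named clusters. The same held when any 1 array was left out, with the TNFRSF10D difference between -1.985 and -1.415. Losses under the block or without an array are therefore not particular to TNFRSF10D.

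The genes were not chosen by position, but the known difference of TNFRSF10D was used in the choice. A shift of the region around that gene is therefore not independent of the choice and is given as a description. The 4 receptor genes of the TNFRSF10 family lie side by side on the short arm of chromosome 8. In RefSeq gene order TNFRSF10B, TNFRSF10C, TNFRSF10D and TNFRSF10A follow each other, and CHMP7 comes after them. CHMP7, a component of the membrane-remodelling ESCRT machinery, measured 7.71 and 7.89 in the H1.3 arrays, against 8.45 and 8.37 in the vector-only arrays. Its difference of -0.61 did not pass in limma (adjusted p 0.103). On the other side the nearest measured gene is not reported here. PEBP4, which lies beyond it and was named after its values were seen, measured 5.82 and 5.51 in the H1.3 arrays, against 5.72 and 5.54 in the vector-only arrays. Its groups overlapped and its level was below the median, so it does not stand for that flank.

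The shift was shared along this neighbourhood. Of the 30 nearest genes with a mean level at or above the median, 15 on each side and the 10 genes themselves left out, 29 had a negative difference and 27 were lower without overlap (background 19.4%). The median of the 30 was -0.42, between -0.49 and -0.35 over the array pairs, with genes from -1.16 to 0.05. TNFRSF10A and TNFRSF10B lay inside that range, with 19 and 8 of the 30 neighbours below them. TNFRSF10D lay below all 30 and the TNFRSF10C cluster above all 30. When dim genes were counted as neighbours too, the median was only -0.07.

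With the neighbours' median taken off on each array, a step chosen after seeing the data, the differences of the death receptors were smaller. TNFRSF10A then differed by 0.06, with groups apart and higher at 7.99 and 7.92 in the H1.3 arrays, against 7.89 and 7.90 in the vector-only arrays, and TNFRSF10B differed by -0.11 with overlapping groups. The same step moved the dim TNFRSF10C cluster to 0.53 and TNFRSF11B to 0.39, with groups apart for both. The medians taken off there, -0.42 and -0.24, came from genes at or above the median level. With dim genes included they were -0.07 and -0.08. As both clusters are dim, their shifted values rest mostly on that choice of neighbours and do not show higher receptor levels. TNFRSF10D kept a difference of -1.28, at 6.44 and 6.89 in the H1.3 arrays, against 7.92 and 7.98 in the vector-only arrays. What moved the neighbourhood, and its part in the receptor values, was not tested.

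**Figure D2:**
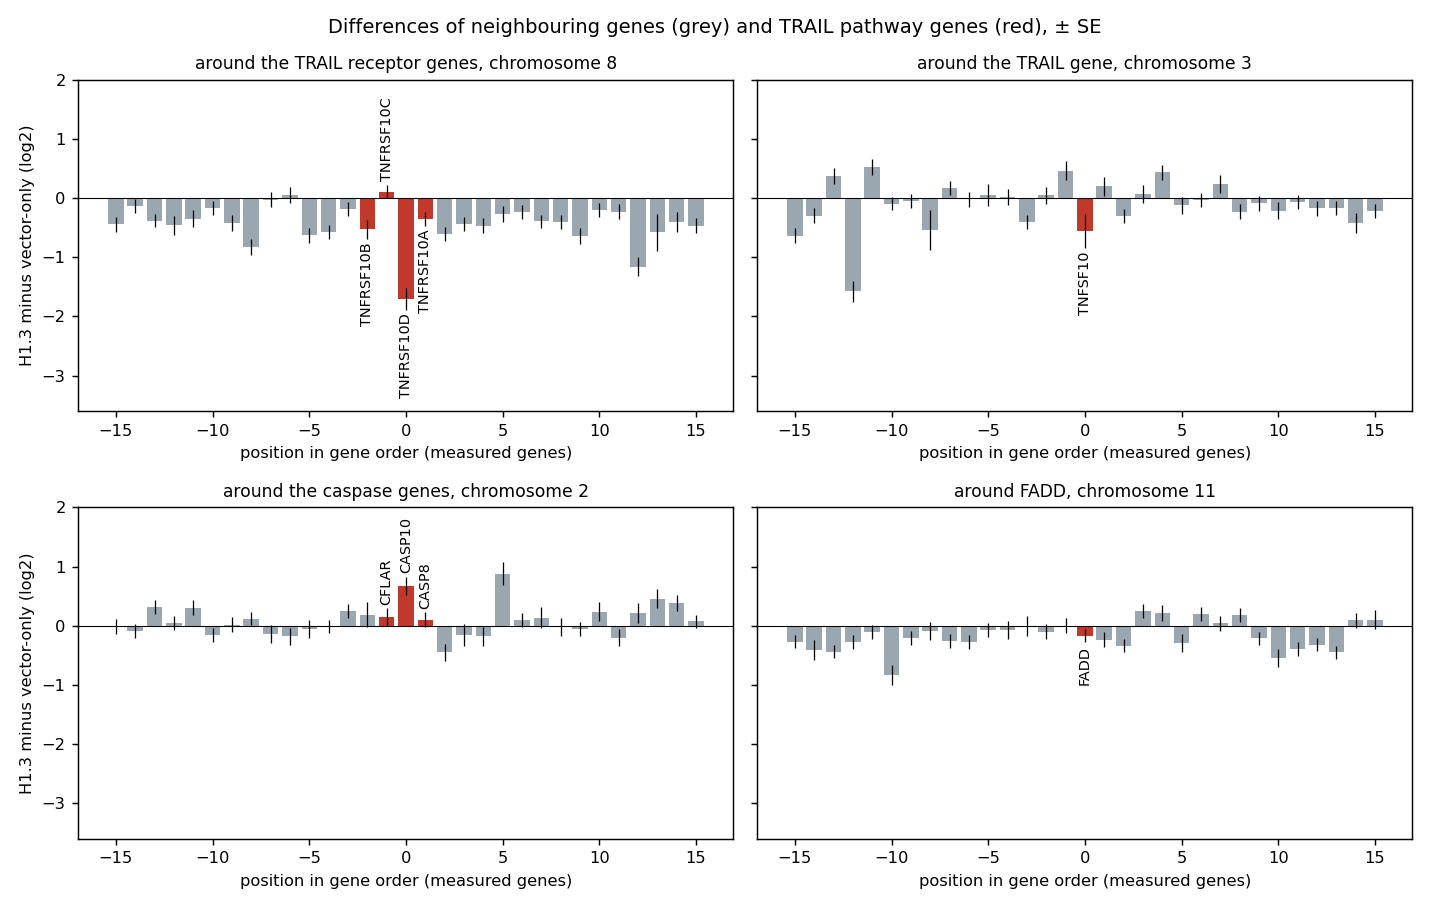
Difference, H1.3 minus vector-only (log2, vertical axis), of genes in chromosome order around 4 of the genes studied, with bars in red for TRAIL pathway genes and grey for neighbours with a mean level at or above the median, and lines for ± SE of the fit. Around the receptor genes of chromosome 8 nearly all grey bars point down and TNFRSF10D, at -1.70, reaches below them, whereas bars around the caspase genes of chromosome 2 point both ways.

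The remaining genes lay elsewhere. TNFRSF11B lies on the same chromosome, away from the other receptors, and its 30 neighbours had a median of -0.24 (-0.08 with dim genes included). FADD, on chromosome 11, had a difference of -0.17 beside a neighbour median of -0.21, with 22 of 30 neighbours lower. That median was -0.07 with 5 genes on each side and -0.08 with dim genes included, and FADD differed by 0.02 once the median of 30 was taken off. CFLAR, CASP10 and CASP8 are adjacent on chromosome 2, with NDUFB3 before them and TRAK2 after them at 0.19 and -0.45. Their 30 neighbours had a median of 0.03, with 14 lower, and CASP10 lay above 29 of them. TNFSF10, on chromosome 3, stood at -0.56 beside a neighbour median of -0.08 (0.05 with 5 genes on each side), and 2 of its 30 neighbours lay below it.

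**Figure D3:**
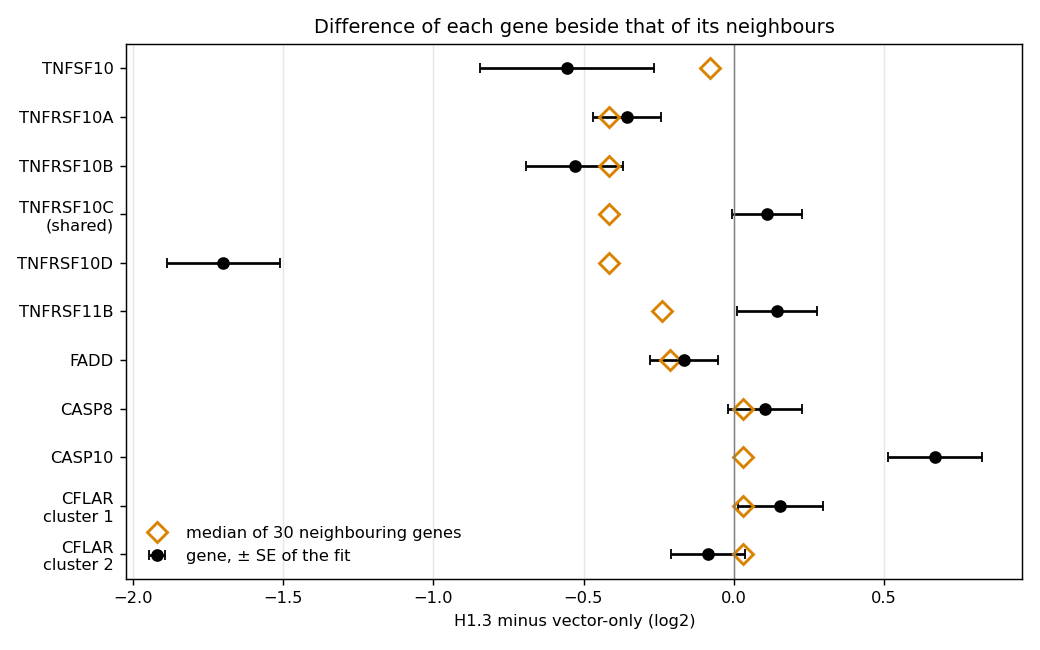
Difference of each transcript cluster, H1.3 minus vector-only (log2, horizontal axis), as black points with ± SE of the fit, beside the median of 30 neighbouring genes as orange diamonds. TNFRSF10A, TNFRSF10B and FADD lie close to their diamonds, and TNFRSF10D (-1.70 against -0.42) and CASP10 (0.67 against 0.03) lie far from theirs.

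The genes whose pattern over the 4 arrays came nearest to that of TNFRSF10D, by Euclidean distance between mean-centred log2 values among 18416 other genes, were NOX4, PRTFDC1 and FAM221A, at distances of 0.19, 0.19 and 0.20. They lie on chromosomes 11, 10 and 7. NOX4, an NADPH oxidase gene, measured 4.82 and 5.36 in the H1.3 arrays, against 6.64 and 6.95 in the vector-only arrays. Nearest to TNFSF10 were HKDC1 (0.12), ADAMTSL3 (0.19) and the TGF-beta receptor gene TGFBR2 (0.24). These 3 shared with TNFSF10 a highest value in vector-only replicate 2, which follows from choosing them by likeness to its pattern. With 4 arrays many genes come close by this measure.

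Other genes of death-receptor signalling were taken from 9 lists, of which 116 of 128 genes had a cluster of their own. In limma over all named clusters 0 of the 116 were higher and 0 lower at an adjusted p under 0.05 (background 0.504%), and 8 were higher and 8 lower at an unadjusted p under 0.05 (background 11.5%). Groups did not overlap for 25 higher and 21 lower genes (backgrounds 21.2% and 19.4%), shares near the background. Their median difference was 0.04, against 0.02 over all named clusters. With an intensity trend and robust moderation, 2 passed in limma: BIRC2, with an adjusted p of 0.0356, and TNFAIP3, with an adjusted p of 0.0414.

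Among other death receptors and ligands, 9 of 11 differences were positive and the median was 0.13. Of all named clusters, 52.8% had a positive difference, and only 5 of these 11 genes lay at or above the median level. FAS, the receptor for FAS ligand that recruits the same FADD and caspase-8, measured 7.58 and 7.74 in the H1.3 arrays, against 7.03 and 7.14 in the vector-only arrays, a difference of 0.58 ± 0.12 (SE, limma adjusted p 0.114). FAS thus lay higher in each H1.3 array than in either vector-only array, though it did not pass; TNFRSF10A, TNFRSF10B and TNFRSF10D lay lower, and TNFRSF10C and TNFRSF11B did not. NGFR, the low-affinity neurotrophin receptor, differed by 0.25. The other TNF receptor family members had a median of 0.07 over 16 genes, with LTBR, the lymphotoxin beta receptor, at -0.29 and CD40 at 0.28. Over the other TNF family ligands 9 of 10 differences were positive with a median of 0.11, and TNFSF14 and CD70 stood at 0.51 and 0.42. Only 3 of these 10 genes lay at or above the median level. The leukocyte markers, mostly dim as well, had 10 of 12 positive differences and a median of 0.09.

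In receptor-proximal signalling, TNFAIP3, the ubiquitin-editing enzyme A20 that restrains NF-kB, measured 8.19 and 7.90 in the H1.3 arrays, against 7.25 and 7.32 in the vector-only arrays. Its difference was 0.76 ± 0.14 (SE, limma adjusted p 0.0821). SHARPIN, a subunit of the linear ubiquitin ligase, differed by -0.27 beside a neighbour median of -0.195, with 25 of 30 neighbours lower. The median over 16 adaptors and kinases was 0.06.

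BIRC2, the ubiquitin ligase cIAP1, measured 7.50 and 7.67 in the H1.3 arrays, against 8.35 and 8.25 in the vector-only arrays, a difference of -0.72 ± 0.12 (SE, limma adjusted p 0.0786). All 30 of its neighbours on chromosome 11 were lower as well, with a median of -0.67, so that BIRC2 differed about as its surroundings did. XAF1, an interferon-induced partner of XIAP, differed by 0.26, and 6 of 10 genes of that list were positive.

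Downstream, 8 of 9 executioner and apoptosome genes were below 0 on this scale (median -0.17), and none passed in limma. CASP9, the apoptosome's initiator caspase, measured 8.20 and 8.19 in the H1.3 arrays, against 8.57 and 8.57 in the vector-only arrays. DFFA, the inhibitor of the caspase-activated nuclease, differed by -0.36. Neighbour medians were -0.07 for CASP9 and -0.145 for DFFA. In this list 3 genes were lower at an unadjusted p under 0.05 (background 11.5% in either direction), and groups were apart and lower for 4 of 9 (background 19.4%). The BCL2 family had a median of 0.01 over 15 genes. BCL2L11, the BH3-only protein BIM, measured 6.98 and 7.15 in the H1.3 arrays, against 7.56 and 7.70 in the vector-only arrays, a difference of -0.57 ± 0.13 (SE, limma adjusted p 0.124), while its neighbours had a median of 0.07. BAD differed by -0.30 beside a neighbour median of -0.28.

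Among genes for receptor glycosylation, ubiquitination and transport, the median was -0.01 over 13 genes, with CAV1, the caveolar coat protein, at 0.46 and ARAP1, a GTPase-activating protein, at -0.36. Neighbour medians were 0 for CAV1 and -0.195 for ARAP1. Of 16 transcription factors linked to TRAIL or its receptors the median was 0.05. IRF1, an interferon-induced factor, measured 8.28 and 7.81 in the H1.3 arrays, against 7.51 and 7.09 in the vector-only arrays, a difference of 0.75 ± 0.20 (SE, limma adjusted p 0.185). SP3 differed by 0.18.

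**Figure D4:**
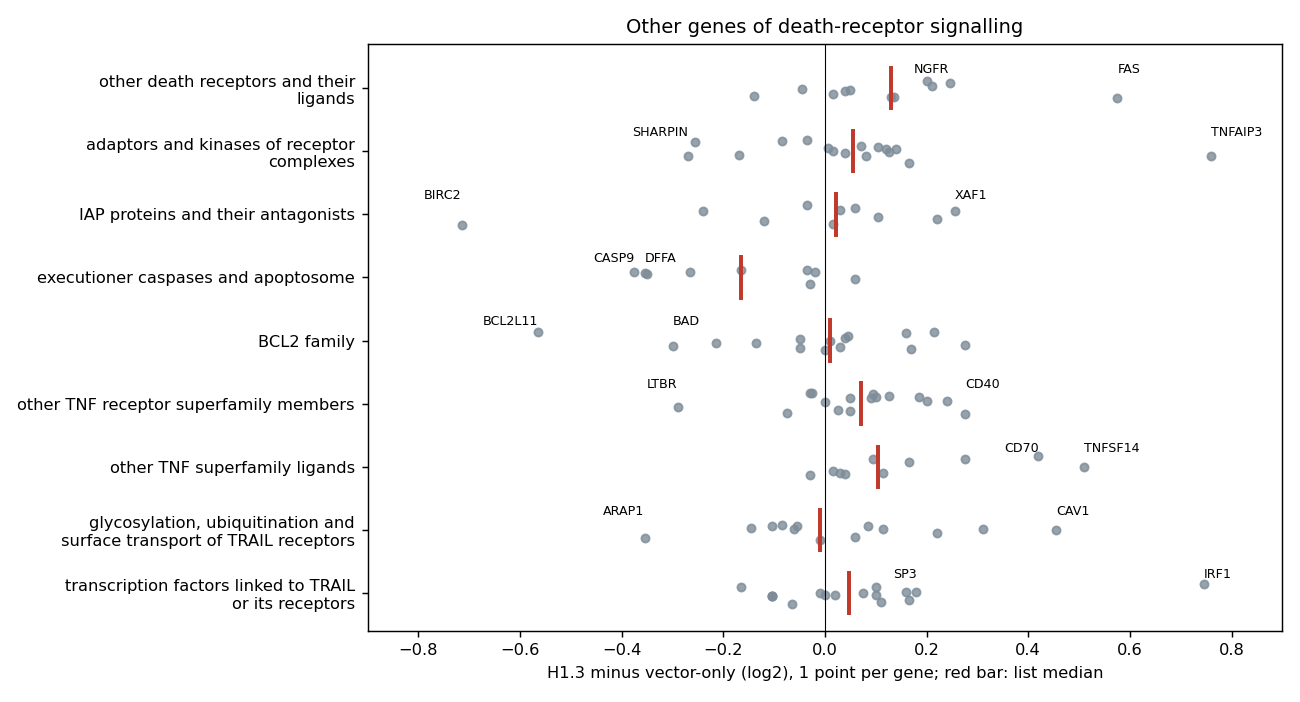
Difference, H1.3 minus vector-only (log2, horizontal axis), of each measured gene of 9 lists of death-receptor signalling, 1 grey point per gene, with the list median as a red bar and the named genes labelled. Medians lie between -0.17 for the executioner and apoptosome genes and 0.13 for other death receptors and ligands, and single genes between -0.72 (BIRC2) and 0.76 (TNFAIP3).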

How the data were processed

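The authors deposited log2 expression values, 1 column for each of 4 arrays. The submitters' processing notes name Affymetrix Expression Console and RMA, but neither versions nor a genome build. RMA equalises array distributions, so a shift common to all genes would not show. Probe intensities were not used here. The series text names an exon array, while the identifiers match a gene array's annotation. Symbols came from that annotation, updated through gene identifiers to RefSeq (GRCh38.p14): 19460 clusters had 1 symbol, 1754 several and 12083 none. A gene with several clusters was represented by the brightest, and all clusters of the 10 genes are given.

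Groups were compared by limma 3.58.1 in R 4.3.3 (lmFit, eBayes, two-sided, no covariate) on the 21214 named clusters, with Benjamini-Hochberg adjustment over all of them and a threshold of 0.05. The fit had 2 residual and 5.16 prior degrees of freedom, and the median SE was 0.13; 2 arrays per group limit the precision. The genes and lists were chosen with earlier results of these data known. From each list, up to 4 passing genes with the largest difference were named, or the 2 of smallest p where none passed; the 3 genes nearest in pattern to TNFRSF10D and to TNFSF10 and the genes flanking those members that lie side by side on a chromosome were also named, except 1 that is not reported here. On simulated data for 2 arrays against 2 over 21214 clusters, 76% of 2-fold and 100% of 4-fold changes were called, with 6 false calls. The simulated errors were independent, with variances drawn from the fitted prior and without regional shifts or differences between cell cultures. The recovery in the measured arrays is therefore not known. Alternatives changed moderation, scaling, filter, clusters tested, threshold, replicate term and arrays. Figures used matplotlib 3.10.9 in Python 3.11.15.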

Additional observations from a re-analysis of the deposited data

How the results depend on the processing

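Named clusters called higher and lower, 51 and 56, were 107 and 138 with an intensity trend and robust moderation, 6 and 3 without moderation, 19 and 31 with arrays at one median, 29 and 38 after quantile normalization was repeated, 1 and 3 with unnamed clusters tested too, 6 and 19 with only clusters at or above the median level, 135 and 176 at an adjusted p under 0.10, and 282 and 401 by an unadjusted rule (p under 0.05 and 1.5-fold or more). Under the replicate block they were 0 and 0 (2195 at an unadjusted p under 0.05), the same as in each fit without 1 array (0 to 0, with 1292 to 2367 at an unadjusted p under 0.05), in which a lone array is assumed to vary like the other group. Of the 10 genes, 1 was called, and 0 without moderation, with unnamed clusters, with the replicate block and without any 1 array (0 to 0), but 2 by the unadjusted rule. Pathway genes called, 0, were 2 with the intensity trend, 2 at 0.10 and 3 by the unadjusted rule, and 0 to 0 without 1 array.

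TNFRSF10D, at -1.70, lost its call without moderation, with unnamed clusters and with the replicate block (each -1.70) and in the fits without 1 array (-1.985 to -1.415), and its value was -1.28 after the neighbour median was subtracted on each array. That subtraction, added after seeing the data, turned TNFRSF10A to 0.062 and FADD to 0.024. Of 129 alternative values of the 11 clusters, 116 were counted as keeping direction and side of the threshold, which says little. Changes of moderation, filter, clusters tested or replicate block could not alter a difference, and only TNFRSF10D had a call to lose. Values after the subtraction had no p-value, and CFLAR differences of 0 without 1 H1.3 array were counted as kept. The causes of changes between settings were not tested, beyond the larger or smaller number of clusters or arrays in each fit. Replicate differences of the groups correlated at 0.06 over named clusters, so pairing by number was not assumed. Values below the lower quartile, as for TNFRSF10C and TNFRSF11B, limit what could be seen there.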
